A study of Mus musculus with 5 samples.

Results

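The regions described here were the *Paupar* CHART-Seq peaks with a midpoint at most 5000 bp from the nearest start of a protein-coding gene, 460 of the 2849 peaks in the deposited list (16.1%). Each gene contributed a single start, the first base of its annotated span on its own strand (NCBIM37, the assembly that mm9 denotes). CHART-Seq (capture hybridisation analysis of RNA targets) uses biotinylated oligonucleotides to pull an RNA out of crosslinked chromatin and sequences the DNA that comes with it. The cells were N2A, an established mouse neuroblastoma line, with no treatment given, and the libraries were 2 *Paupar* pull-downs, 2 pull-downs with a *LacZ* control oligonucleotide and 1 input DNA. The deposited list gives where each peak lies and its score, with no value for any library, so read depth is unknown, spread between replicates could not be measured, and every interval and p-value below takes peaks as the units and covers counting error only. It holds no expression values either, so the identity of the cells could not be checked against markers. Of the pairs of neighbouring peaks within this set, 18 lay within 10 kb of each other and may share a locus.

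*Paupar* is a long non-coding RNA transcribed upstream of *Pax6*, which encodes a transcription factor of the developing brain and eye. Gene starts are the places where RNA polymerase II begins transcription, and in mammals many of them lie in CpG islands, stretches that are rich in G and C and keep most of their CpG dinucleotides. Transcription factors bind beside starts through short sequence motifs, such as the GC box and the CACCC box read by SP and KLF family proteins. An RNA can be found at such a site because it, or a protein partner, contacts the chromatin there, and capture oligonucleotides can also pair with DNA directly where the sequence allows.

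The sequences that carry the results come first, starting with the capture reagents. The *Paupar* oligonucleotides, of 24 nt each, are given so that matches in the peaks can be read against them.

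Paupar 254: ggcttaagtccacccctggattcg

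Paupar 428: gcctggaactagatcaaggcagag

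Paupar 2041: ctctcagaaactgcgatacaaaag

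Paupar 2067: gaggcctagtcaaaatatctccac

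The second set is 9 of the 10 stretches of mm9 under start-proximal peaks with the longest exact matches to them, read on the strand that runs like the oligonucleotide and cut to its length, with the matching run in capitals. Runs of 12 nt were the longest in 10 members, and those with the higher scores were taken. *Sdk1* (a cell adhesion molecule of the synapse), *Tnfrsf18* (a tumour necrosis factor receptor family member), *Cst6* (a protease inhibitor) and *Plekhg6* matched Paupar 254. *Lmo1* (a LIM-domain transcriptional cofactor) matched Paupar 2041, *Sh3rf3*, *Nfatc3* (a calcium-regulated transcription factor) and *RP23-43M12.1* matched Paupar 2067, and *Svop* (a synaptic vesicle protein) matched Paupar 428.

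Sdk1, chr5:141718167-141718190, minus strand: ccacaAAGTCCACCCCTGGggtgt

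Tnfrsf18, chr4:155405251-155405274, minus strand: tacattctagCACCCCTGGATTtc

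Cst6, chr19:5345872-5345895, minus strand: gtggcttcTCCACCCCTGGAatca

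Plekhg6, chr6:125328164-125328187, minus strand: tagaggatTCCACCCCTGGAgacg

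Lmo1, chr7:116317086-116317109, plus strand: tTCTCAGAAACTGCagtcataaac

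Sh3rf3, chr10:58277257-58277280, minus strand: ccaGCCTAGTCAAAATggaagtgg

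Nfatc3, chr8:108579302-108579325, plus strand: aAGGCCTAGTCAAgcctgaaggca

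RP23-43M12.1, chr10:115011598-115011621, minus strand: agacaccAGTCAAAATATCcatct

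Svop, chr5:114543992-114544015, minus strand: cCCTGGAACTAGAgttacaagcag

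The longest run, 14 nt at *Sdk1*, covered positions 6 to 19 of Paupar 254, counted from its 5′ end. No member held a full match, and outside the run these 24-base stretches matched at few further positions: between 12 and 17 bases in all were identical to the oligonucleotide. The sites at *Sdk1*, *Tnfrsf18*, *Cst6* and *Plekhg6* share the run CACCCCTGG, which contains the CACCC box.

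The third set is a peak upstream of *E2f2*, which encodes a transcription factor of the cell cycle. The whole peak, 189 bp on the plus strand at chr4:135727925-135728113, is printed with the CACCC box in capitals.

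E2f2: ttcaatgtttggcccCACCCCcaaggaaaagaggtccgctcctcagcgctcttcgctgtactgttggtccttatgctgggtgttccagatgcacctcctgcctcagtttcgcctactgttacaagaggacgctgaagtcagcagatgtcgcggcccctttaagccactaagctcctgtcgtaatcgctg

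The midpoint lay 290 bp upstream of the *E2f2* start, the score was 19.6, and the sequence had a GC content of 55% and an observed over expected CpG ratio of 0.641. The fourth set contrasts peaks with high scores. *Svop*, *Sirt1* (a protein deacetylase) and *Heatr6* are shown by the central 200 bp of their peaks, and *Tmem5* (a glycosyltransferase that acts on dystroglycan) and *Nebl* (the actin-binding protein nebulette) by the 200 bp upstream of the start, all within the peak and on the strand of the gene. *Nebl* falls outside the rule for named genes and was chosen after its values were seen. Capitals mark letters of the motifs spelled out further on, and at *Tmem5* the repeated GAGGCGG.

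Svop, chr5:114545395-114545594, minus strand: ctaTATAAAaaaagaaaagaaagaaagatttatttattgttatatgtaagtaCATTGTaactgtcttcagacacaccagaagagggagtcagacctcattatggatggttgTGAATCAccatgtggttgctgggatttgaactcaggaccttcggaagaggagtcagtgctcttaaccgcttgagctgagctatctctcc

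Sirt1, chr10:62840500-62840699, minus strand: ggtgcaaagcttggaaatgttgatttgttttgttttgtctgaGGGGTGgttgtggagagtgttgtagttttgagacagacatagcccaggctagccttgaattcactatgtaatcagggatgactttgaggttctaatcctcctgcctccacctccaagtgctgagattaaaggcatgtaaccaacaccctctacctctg

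Heatr6, chr11:83566470-83566669, plus strand: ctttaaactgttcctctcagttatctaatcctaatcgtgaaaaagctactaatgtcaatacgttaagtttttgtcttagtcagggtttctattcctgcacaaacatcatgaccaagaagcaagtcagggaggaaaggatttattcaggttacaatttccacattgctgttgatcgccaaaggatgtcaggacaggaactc

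Nebl, chr2:17653092-17653291, minus strand: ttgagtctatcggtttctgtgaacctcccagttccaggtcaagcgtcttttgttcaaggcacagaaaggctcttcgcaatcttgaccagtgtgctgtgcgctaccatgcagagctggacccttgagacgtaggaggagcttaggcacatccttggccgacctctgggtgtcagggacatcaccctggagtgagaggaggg

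Tmem5, chr10:121534428-121534627, minus strand: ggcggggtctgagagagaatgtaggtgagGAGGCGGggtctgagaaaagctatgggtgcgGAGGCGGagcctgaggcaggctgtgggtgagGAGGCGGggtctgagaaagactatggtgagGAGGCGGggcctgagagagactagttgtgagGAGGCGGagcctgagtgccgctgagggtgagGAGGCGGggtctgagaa

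The capitals at *Svop* are a TATA box, a SOX core and an AP-1 site, and those at *Sirt1* are a CACCC box on the opposite strand. GAGGCGG occurred 6 times in the 200 bp before the *Tmem5* start. The same letters were found, on either strand, in the central 200 bp of 17 of 460 start-proximal peaks (3.7%) and in 14.3% of 200 bp windows around all gene starts. This repeat was chosen after the *Tmem5* sequence was seen.

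Start-proximal peaks were crowded into the first kilobase around the start. Of the 460, 199 lay within 1 kb and 261 between 1 and 5 kb, and 73 (15.9%) covered the start itself. The distance without sign ran from 8 to 4984 bp with a median of 1328 bp. Counted against the amount of nuclear genome at each distance, there were 5.31 peaks per Mb (4.37 to 6.4, 95% interval) in the first kilobase upstream and 4.1 (3.28 to 5.05) in the first kilobase downstream. From 1 to 5 kb the density was 1.56 per Mb upstream (1.29 to 1.86) and 1.73 downstream (1.46 to 2.04), and these intervals overlapped those from 5 to 20 kb, where it was 1.47 (1.3 to 1.64) and 1.48 (1.33 to 1.65). The fullest bin of 500 bp was the one just upstream of the start, with 66 peaks and 6.3 per Mb.

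**Figure D1:**
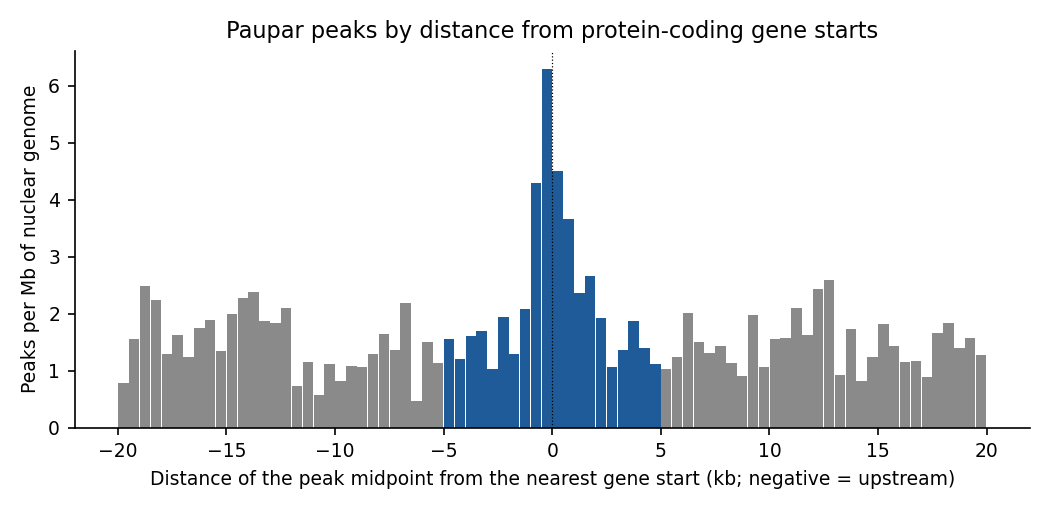
*Paupar* peaks per Mb of nuclear genome (y axis) in bins of 500 bp by the distance of their midpoint from the nearest protein-coding gene start (x axis, kb, negative upstream). Blue bars are the start-proximal peaks and grey bars the peaks from 5 to 20 kb; the bin just upstream of the start reaches 6.3 per Mb.

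Upstream and downstream sides held nearly the same number of peaks. There were 229 upstream and 231 downstream (49.8% upstream, 45.2 to 54.3%), a split that did not differ from 50% (exact binomial test, two-sided, p = 0.96). Within 1 kb 110 were upstream and 89 downstream. At the edge of the set, the members just inside 5000 bp were at *Fkbp10* (4984 bp downstream, score 8.71) and *Amn1* (4982 bp upstream, score 25.8), and the peaks just outside it were at *Ralgps2* and *Rrp7a*, both 5009 bp downstream with scores of 15.0 and 9.06.

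By annotation, 220 midpoints (47.8%) lay between protein-coding genes and 200 (43.5%) in introns. A further 17 lay in 5′ UTRs, 14 in coding exons and 9 in 3′ UTRs. The 5′ UTR share was 3.7% here and 0.335% in the 2389 other peaks, a difference that the choice by distance brings with it. The midpoint was inside the nearest gene for 210 members, inside another protein-coding gene for 45 and inside a non-coding gene or pseudogene for 25.

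The 5 members closest to a start were all a few bases downstream and in 5′ UTRs, and 4 of them are named here. They were at *Dtd1* (a D-aminoacyl-tRNA deacylase), 8 bp from the start with a score of 28.7, and *Ap3b2* (a neuronal adaptor complex subunit), 20 bp with a score of 25.3, followed by *Zfp790* and *Nipa1* (a magnesium transporter), both 23 bp, with scores of 11.2 and 12.7. The centres at *Dtd1* and *Zfp790* were CpG island-like as defined below, and those at *Ap3b2* and *Nipa1* were not.

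The score, by which the authors' list ranks peaks, had a median of 13.4 over the members (6.24 to 118) and 12.5 over the other peaks. A score of at least 10 was reached by 346 of 460 members (75.2%) and 1669 of 2389 others (69.9%), an odds ratio of 1.31 (1.04 to 1.66; Fisher's exact test, two-sided, adjusted p = 0.043 over 4 comparisons). That call was lost at a score limit of 20 (Fisher's exact test, odds ratio 1.23 and adjusted p = 0.15), with a distance limit of 2500 bp (1.31, 0.1) and with peaks within 10 kb merged (1.3, 0.063). Members within 1 kb and those at 1 to 5 kb were not told apart by score, with 77.4% and 73.6% at 10 or more (odds ratio 1.23, 0.783 to 1.94, Fisher's exact test, adjusted p = 0.51). Among the 73 peaks that covered the start, the median score was 17.2 and 86.3% reached 10. Across the 460 members Spearman's rho was -0.083 between distance without sign and score, and 0.35 between width and score, given as descriptions of 1 list.

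The 10 highest scores lay mostly away from the start. *Svop* led with 118 (rank 8 of all 2849 peaks) at 3916 bp upstream, followed by *Sirt1* with 93.8 at 3852 bp downstream in an intron and *Glp1r*, the receptor of glucagon-like peptide 1, with 76.7 at 4702 bp upstream. *Gm17379* on the X chromosome had 76.3, *Heatr6* 65.4 at 628 bp upstream, *Leprotl1* 62.5, *Pigv* (a mannosyltransferase of glycolipid anchor synthesis) 62.4 and *Creg1* (a lysosomal glycoprotein) 60.1. *Tmem5* had 57.2 at 88 bp upstream and *Vwa3b* 54.8. Of these 10, only *Heatr6* and *Tmem5* were within 1 kb, and only *Tmem5* covered the start and had a CpG island-like centre.

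**Figure D2:**
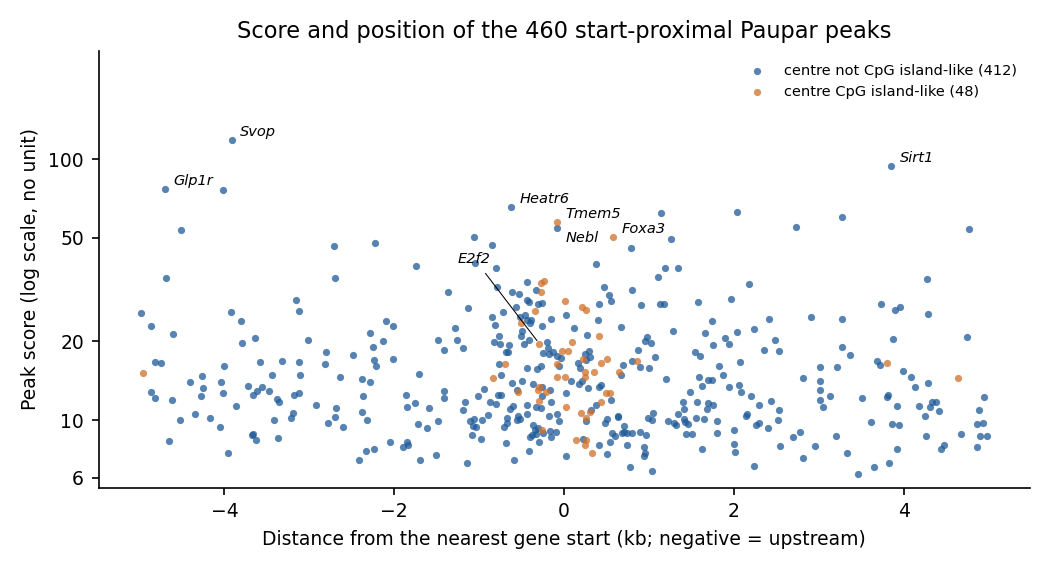
Score (y axis, log scale, no unit) against distance from the nearest gene start (x axis, kb, negative upstream) for the 460 start-proximal peaks, 1 point each. Orange points are the 48 peaks with a CpG island-like centre, nearly all within 1 kb of the start, and the highest points are *Svop* (118) and *Sirt1* (93.8).

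Widths passed no test at the main limit and did so at a lower one. The median was 597 bp (175 to 7198) in members and 544 bp in the others, and 75 members (16.3%) against 431 others (18%) were wider than 1000 bp (odds ratio 0.885, 0.667 to 1.16, Fisher's exact test, adjusted p = 0.39). With a limit of 500 bp the direction turned, at 62.2% against 55.4% (Fisher's exact test, odds ratio 1.32 and adjusted p = 0.015). The widest members were at *Glp1r* (7198 bp), *Gm7120* (4887 bp) and *Svop* (4443 bp). Within 1 kb and at 1 to 5 kb, 16.1% and 16.5% were wider than 1000 bp (odds ratio 0.971, 0.568 to 1.65, Fisher's exact test, adjusted p = 1.0).

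Sequence repeated through the genome was counted at the centres of members and beside them. A centre was counted as repeated when at least 10% of its 20-mers occurred at least 100 times in the genome on both strands together, a measure added after the data were seen. This held for 34 of 460 members (7.39%, 5.34 to 10.2%), for 323 of 2389 other peaks (13.5%, 12.2 to 15%) and for 118 of 920 windows 1 kb outside the members (12.8%, 10.8 to 15.1%). Among the members it held for 15 of 115 with a score of at least 20 (13%) and 19 of 345 below that (5.51%). Of the 10 highest scores it held for 3: *Svop* had 38.7% of its 20-mers repeated, *Heatr6* 22.1% and *Gm17379* 19.3%. Below the limit, *Creg1* had 9.39%, *Leprotl1* 8.29%, *Sirt1* 6.08% and *Pigv* 2.21%, while *Tmem5*, *Vwa3b* and *Glp1r* had none. *Nebl*, outside those 10, had none either. No test was run on these shares, and the authors kept only reads with a single best position.

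CpG island-like sequence was more frequent at the centres of start-proximal peaks than at those of the rest. A 200 bp window was called CpG island-like with a GC content of at least 50% and an observed over expected CpG ratio of at least 0.6. The central window passed in 48 of 460 members (10.4%, 7.96 to 13.6%) and 13 of 2389 other peaks (0.544%), an odds ratio of 21.3 (11.2 to 43.2; Fisher's exact test, adjusted p = 3.9e-27). Within 1 kb 45 of 199 passed (22.6%) and at 1 to 5 kb 3 of 261 (1.15%), an odds ratio of 25.1 (7.81 to 128; Fisher's exact test, adjusted p = 3.2e-14). Both tests compare sets chosen by distance from gene starts, of which 48.5% passed. They therefore cannot separate the peaks from their position.

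Windows at the same distance from all 22380 gene starts gave shares that were close in the bins nearest to the start. In the 500 bp before the start 21.2% of peaks and 22.3% of all-gene windows passed, and in the first 500 bp after it 44.9% and 44.4%. From 500 bp to 1 kb downstream the shares were 12.8% and 14.5%, and over the same stretch upstream 9.09% (4 of 44 peaks) and 5.34%. Farther downstream none of the 53 peaks from 1 to 2 kb passed, which allows a share of up to 5.66% (3 counts), where the bins of all-gene windows stood at 5.42% and 3.02%. Median GC content of the central 200 bp was 51.0% in members, 48% in other peaks and 59.0% at all gene starts.

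**Figure D3:**
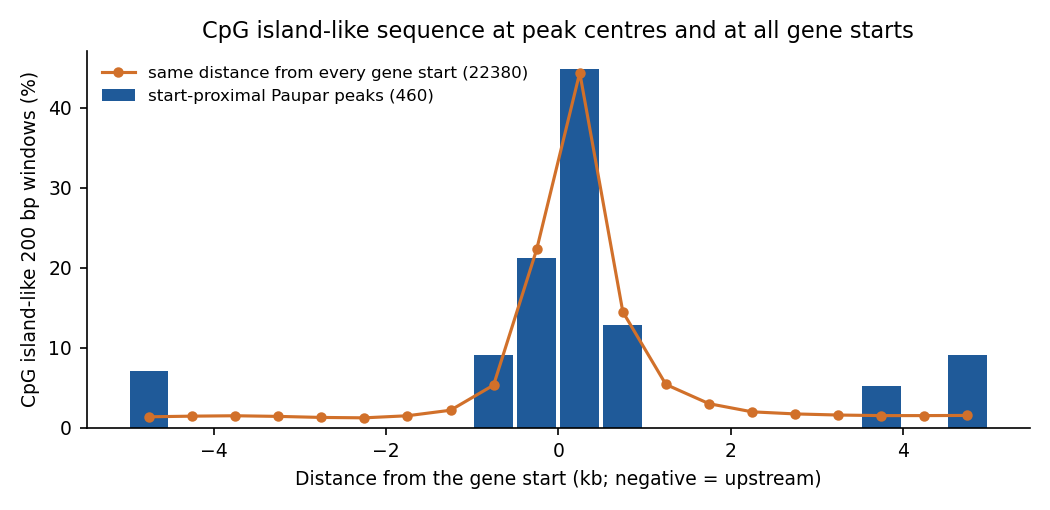
Share of 200 bp windows that were CpG island-like (y axis, %) by distance from the gene start (x axis, kb, negative upstream, bins of 500 bp). Bars are the centres of the 460 start-proximal peaks and the line the same distances from all 22380 gene starts; both are highest in the 500 bp after the start, at 44.9% and 44.4%.

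The starts next to the members were CpG island-like more often than their centres. This was so for the nearest start of 124 of the 199 members within 1 kb (62.3%, 55.4 to 68.8%), and 38 of those 124 peaks had a CpG island-like centre themselves (30.6%). Beside starts without CpG island-like sequence, 7 of 75 centres passed (9.33%). Over all protein-coding genes 48.5% of starts passed. Starts and centres lay at unlike positions, and windows of all genes also passed less often away from the start. The contrast between starts and centres therefore cannot be read as a trait of the peaks.

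In all, 529 of 22380 genes had a member within 5 kb of their start (2.36%) and 224 had one within 1 kb (1.0%). Among the 529, 318 starts (60.1%, 55.9 to 64.2%) were CpG island-like, and among the 224, 144 (64.3%, 57.8 to 70.3%). A divergent pair had its minus-strand start before its plus-strand start on the chromosome, at most 1 kb apart. Opposite-strand starts in the reverse order were not counted. Starts in such a pair made up 7.15% of all genes, 10.2% of the 529 and 14.3% of the 224 (10.3 to 19.5%). These shares are descriptions, since 1 peak between close starts counts for several genes.

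Some members lay near several starts at once. There were 26 within 1 kb of at least 2 gene starts, and for 23 of these the starts were on opposite strands. *Idh1* (isocitrate dehydrogenase) and *Pikfyve* (a phosphoinositide kinase) shared a peak with a score of 17.98, and *Pfdn2* (a prefoldin chaperone subunit) and *Nit1* one of 21.1. *Orc4* (an origin recognition subunit) and *Mbd5* (a methyl-CpG-binding domain protein) shared one of 9.88. *Dolk* (dolichol kinase) and *Nup188* (a nuclear pore protein), with starts 43 bp apart, had 2 members, of 16.5 and 8.03, 1 on each side. These pairs, other than *Orc4* and *Mbd5*, were named after their values were seen.

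A single member was the usual number. Of the 529 genes, 507 had 1 member within 5 kb, 22 had 2 and none had 3 or more. *Rara*, the retinoic acid receptor alpha, had 2, at 2017 bp upstream (score 17.1) and 376 bp downstream (score 11.5). *Hif3a*, a hypoxia-inducible factor, also had 2, at 542 bp upstream (10.4) and 1642 bp downstream (10.1), and was named after its values were seen.

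Exact matches to the *Paupar* capture oligonucleotides were more frequent in members than beside them. Counting any of the 4 on either strand, runs of 10 nt or more present in 127 of 460 members (27.6%, 23.7 to 31.9%) and in 100 of 920 neighbouring regions of the same width (10.9%, 9.02 to 13%). The odds ratio was 3.13 (2.31 to 4.23; Fisher's exact test, p = 1.6e-14). The test took all regions as independent and ignored which peak each neighbouring region lay beside. Median GC content was 51.3% over the whole members and 48.6% over the neighbouring regions, and its part in the difference was not tested. Whether any matched stretch took part in the pull-down was not tested either. The *LacZ* control oligonucleotide matched 1 member (0.217%) and 7 neighbouring regions (0.761%). Each *Paupar* oligonucleotide matched 1.3 to 4.35% of neighbouring regions. Peaks were called against the *LacZ* pull-downs, so the *LacZ* share in members cannot serve as an independent control.

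By oligonucleotide, Paupar 254 matched 53 members (11.5%) against 31 neighbouring regions (3.37%), and Paupar 2041 matched 39 (8.48%) against 20 (2.17%). Paupar 2067 matched 23 (5.0%) against 12 (1.3%). Paupar 428 stood apart, with 23 members (5.0%) and 40 neighbouring regions (4.35%), and the intervals of these shares overlapped (3.35 to 7.39% and 3.21 to 5.87%). Matches of at least 12 nt were found in 13 members (2.83%) and 4 neighbouring regions (0.435%). The 10 nt most often matched in members were positions 10 to 19 of Paupar 254, in 15 members, followed by positions 11 to 20 of Paupar 254 and 1 to 10 of Paupar 2041, in 11 each.

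**Figure D4:**
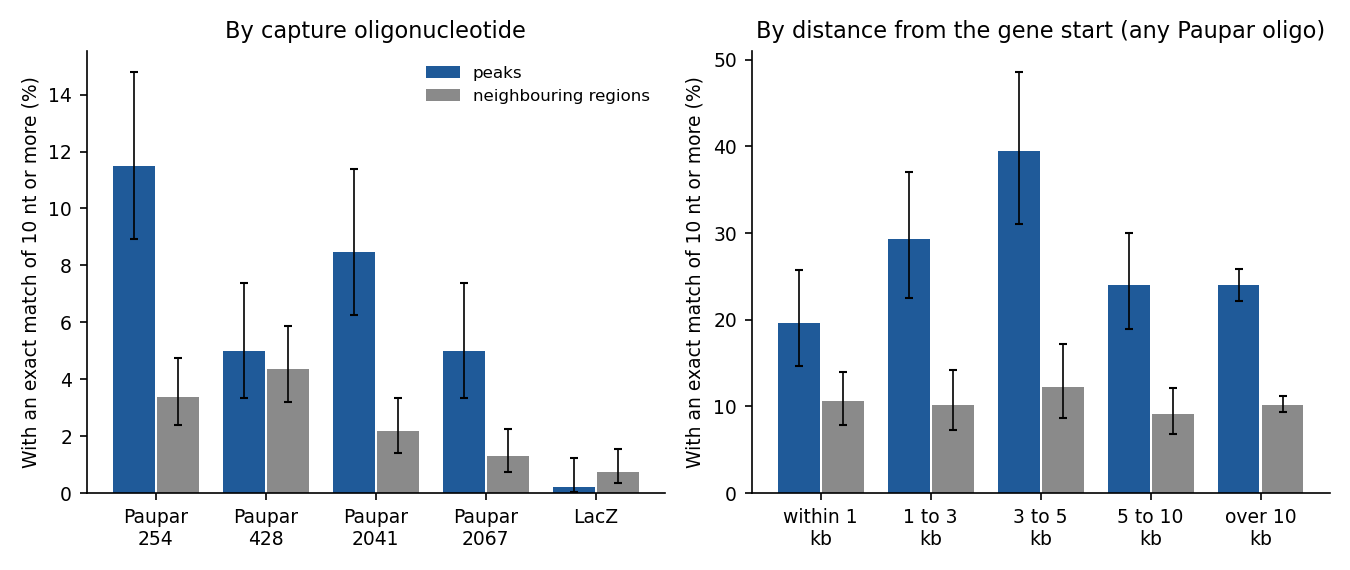
Share of regions with an exact match of at least 10 nt to a capture oligonucleotide (y axes, %), for each oligonucleotide over the 460 start-proximal peaks (left) and for any *Paupar* oligonucleotide by distance of all 2849 peaks from the gene start (right). Blue bars are peaks, grey bars neighbouring regions of the same width and whiskers 95% Wilson intervals; Paupar 428 shows nearly equal bars, and peaks at 3 to 5 kb reach 39.5%.

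Members far from the start held such matches more often than those close to it. Within 1 kb 39 of 199 had a match (19.6%, 14.7 to 25.7%) and at 1 to 5 kb 88 of 261 (33.7%, 28.3 to 39.7%), an odds ratio of 0.479 (0.302 to 0.754; Fisher's exact test, adjusted p = 0.0015). The share was 29.3% at 1 to 3 kb and 39.5% at 3 to 5 kb, and neighbouring regions held 10.6% within 1 kb and 11.1% at 1 to 5 kb. Median widths were 591 and 604 bp, and median GC contents of the centre 52.0 and 49.5%. The call was lost when at least 12 nt had to match (1.01 against 4.21%, Fisher's exact test, adjusted p = 0.095) and when only the central 200 bp were searched (7.54 against 14.2%, adjusted p = 0.053). Against all other peaks, of which 573 of 2389 had a match (24%), the members' share did not pass the test (odds ratio 1.21, 0.957 to 1.52, Fisher's exact test, adjusted p = 0.15).

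Motifs were counted in the central 200 bp on both strands, without a test. The CACCC box (CACCCC) was in 151 of 460 members (32.8%, 28.7 to 37.2%), 24.4% of other peaks, 17.1% of windows 1 kb outside the members (14.8 to 19.6%) and 17.9% of 200 bp windows around all gene starts. Paupar 254 contains the same 6 letters. Among the 407 members without a match of at least 10 nt to that oligonucleotide, 126 held the box (31.0%, 26.7 to 35.6%).

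Other promoter motifs had lower shares in members than around all gene starts. Windows at starts were centred on the start, while most member centres lay 1 to 5 kb away. For every motif, a gap between members and starts therefore cannot be read as a trait of the peaks. The GC box (GGGCGG) was in 11.5% of members, 17.6% of those within 1 kb, 7.61% of outside windows and 39.9% of starts. The ETS site (CCGGAAG) was in 1.52% of members, 3.02% of those within 1 kb, 1.63% of outside windows and 9.37% of starts. The NRF1 site was in 0.435%, 1.01%, 0.543% and 6.64% in the same order. The cyclic AMP response element (TGACGTCA) was in none of the 460, which allows a share of up to 0.652% (3 counts), and in 1.93% of starts. The TATA box (TATAAA) was in 5.87% of members, 3.52% of those within 1 kb, 10.7% of outside windows and 8.19% of starts.

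For most motifs of developmental factors the shares were close to those outside. The paired-domain site of PAX6, with up to 2 mismatches, was in 46 members (7.58 to 13.1% as a share), 8.37% of outside windows (6.75 to 10.3%) and 8.03% of starts. The neural E-box (CAGCTG) was in 12.4%, 10.3% and 12.3%, the SOX core (ACAATG) in 8.7%, 7.93% and 6.41%, and the homeodomain core (TAATTA) in 3.91%, 4.57% and 2.0%. The CCAAT box (CCAAT) was in 25.0%, 21.4% and 27.3%. Of the rest, the AP-1 site (TGANTCA) was in 4.57% of members, the CTCF core in 3.48%, the MYC E-box (CACGTG) in 2.61%, the forkhead core (TGTTTAC) in 2.39%, the E2F site (TTTNNCGC) in 1.52%, the octamer (ATGCAAAT) in 0.435% and the YY1 site in 0.217%. At starts these stood at 4.13%, 4.62%, 5.55%, 1.61%, 4.26%, 0.947% and 2.94% in the same order. In outside windows they stood at 5.87%, 2.17%, 2.93%, 2.39%, 1.41%, 1.41% and 0.326%. For the octamer the intervals of members and outside windows overlapped (0.119 to 1.57% and 0.828 to 2.4%).

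Gene groups were read against the 2.36% of all protein-coding genes with a member, as counts without a test. Among genes of neural function, 6 of 107 synaptic vesicle and synaptic adhesion genes had a member (5.61%). For vesicle release these were *Sv2c*, a vesicle membrane protein (score 31.6, 800 bp downstream), and the calcium sensors *Syt5* (24.03, 2100 bp upstream) and *Syt1* (11.1, 2688 bp upstream). For adhesion and scaffold they were *Cntnap1*, of the axon and myelin junction (14.6, 1661 bp downstream), and the postsynaptic scaffold proteins *Shank3* (11.7, 1164 bp upstream) and *Homer3* (9.33, 312 bp upstream). Only *Sv2c* and *Homer3* were within 1 kb.

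Receptors and channels had counts near the background. Of 105 neurotransmitter receptor genes 2 did (1.9%), the muscarinic receptor *Chrm4* with a score of 38.2 at 1342 bp downstream and the adrenergic receptor *Adra2a* with 13.3 at 4255 bp upstream, and no glutamate, GABA or glycine receptor gene had one. Of 163 ion channel genes 3 did (1.84%), the potassium channels *Kcna5* and *Kcnh2* and the calcium channel subunit *Cacnb1*, at 3275 to 4347 bp with scores of 10.5 to 19.1. In axon guidance 3 of 76 did (3.95%): the ligand *Rgmb* (8.82) and the receptors *Neo1* (8.51) and *Nrp2* (16.4). Of 67 cadherins and protocadherins only *Pcdh1* did.

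Transcription factors of neural development were near the background or under it. Of these genes 3 had a member (1.49%), which were *Sox9* (score 20.03, 2133 bp upstream), *Isl1* (16.4, 2821 bp upstream) and *Rara*. Basic helix-loop-helix factors (0 of 38) and Hox genes (0 of 40) had none. Among the 79 cell cycle and replication genes of the list 2 did (2.53%), *E2f2* and *Orc4*. None of its cyclins, cyclin-dependent kinases, phosphatases or inhibitors did. The list was not complete, so its share does not stand for all such genes. Outside it, *Cdk9*, a cyclin-dependent kinase, had a member (47.5, 2230 bp upstream). So did the DNA polymerase subunits *Pola2* (19.5, 469 bp upstream) and *Pole2* (17.6, 85 bp upstream). Genes outside the list were named after their values were seen.

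Chromatin regulators had 7 of 171 (4.09%), with 5 of them within 1 kb. *Sirt1*, *Hdac5*, a histone deacetylase (14.8, 741 bp upstream), and *Brd1*, a bromodomain scaffold of acetyltransferase complexes (27.0, 1127 bp upstream), act on acetylation. *Kdm4b*, a histone demethylase (11.9, 300 bp upstream), and *Whsc1l1*, a histone methyltransferase (16.2, 270 bp upstream), act on methylation. *Chd2*, a chromatin remodeller, had 31.6 at 337 bp upstream, and *Mbd5* shared the *Orc4* peak.

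Among signalling pathways the Wnt list had 4 of 72 (5.56%), all beyond 1 kb. These were the ligand *Wnt5a* (11.2, 3043 bp downstream), the receptor *Lrp6* (19.8, 1023 bp downstream), the inhibitor-linked receptor *Kremen2* (23.99, 3805 bp upstream) and the kinase *Gsk3b* (26.4, 3893 bp downstream). The Notch list had *Dtx3* (1 of 40), the TGF-beta and BMP list *Gdf15* (1 of 68), and the FGF (0 of 37) and hedgehog (0 of 12) lists none. The insulin and islet list had *Glp1r* and *Igfbp4* (2 of 36, 5.56%).

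**Figure D5:**
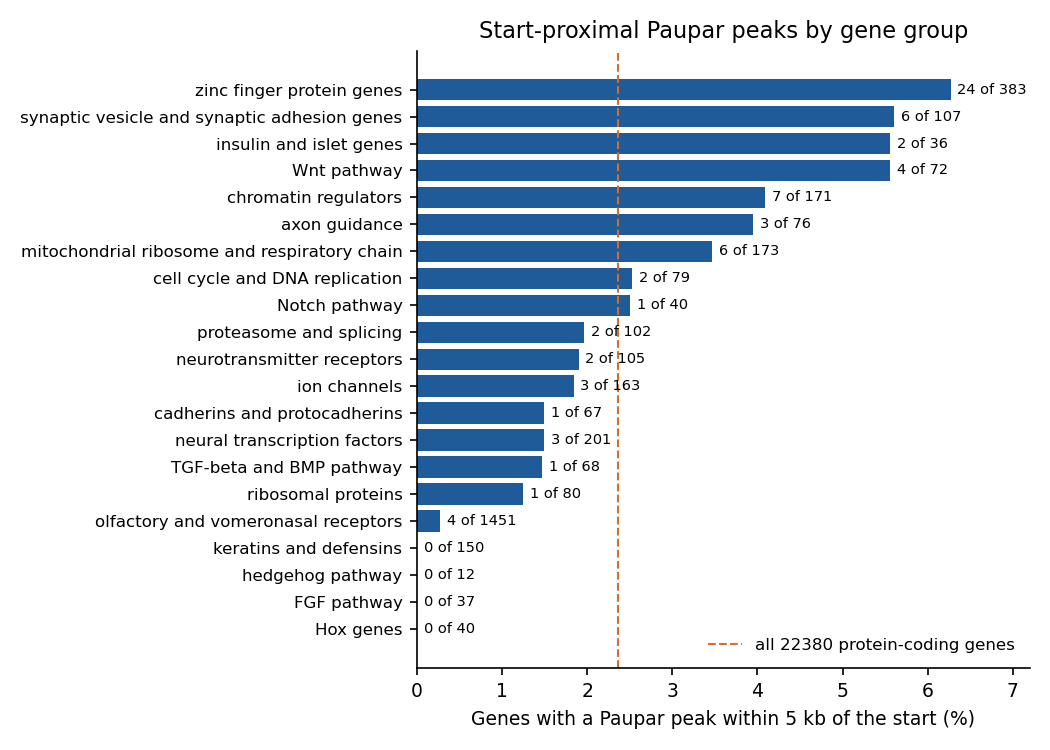
Share of genes with a start-proximal *Paupar* peak within 5 kb (x axis, %) for each gene group (y axis), with the count beside each bar. The dashed line is the 2.36% of all 22380 protein-coding genes; zinc finger protein genes have the longest bar (6.27%) and olfactory and vomeronasal receptors 0.276%.

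Housekeeping groups had small counts. Genes of the mitochondrial ribosome and nuclear-encoded respiratory chain had members in 6 of 173 cases (3.47%), 4 of them within 1 kb, such as *Sdhc*, a subunit of respiratory complex II (27.1, 213 bp downstream), and *Mrps33* (19.9, 207 bp upstream). Proteasome and splicing genes had 2 of 102 (1.96%), *Hnrnpa3* (30.8, 1365 bp upstream) and *Snrpd3* (10.9, 2525 bp downstream), and ribosomal protein genes 1 of 80 (1.25%), *Rpl27a* (39.8, 1054 bp upstream). Olfactory and vomeronasal receptor genes, which lie in large clusters poor in CpG islands, had 4 of 1451 (0.276%), and keratins and defensins 0 of 150.

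Zinc finger protein genes, named Zfp, Zscan or Zkscan, were the list with the highest share, 24 of 383 (6.27%), of which 15 were within 1 kb. Most such genes encode DNA-binding repressors that sit in tandem clusters, yet the 24 genes came from 23 separate peaks, as only *Zfp566* and *Zfp260* shared one. They were spread over 13 chromosomes, with 6 of the 91 such genes on chromosome 7, 3 of 44 on chromosome 17 and 0 of 39 on chromosome 13. Scores ran from 8.27 to 32.4 with a median of 11.3, and 15 of 23 reached 10. The highest were *Zfp746* (32.4, 792 bp upstream), *Zfp451* (28.1, 265 bp upstream), *Zscan22* (23.1, 810 bp upstream) and *Zfp161* (21.0, 769 bp upstream). In 17 of the 23 the nearest zinc finger start was CpG island-like, as were 223 of all 383 such starts (58.2%), and 7 of 23 centres were so themselves. Matches to a capture oligonucleotide were present in 4 of 23 (17.4%, 6.98 to 37.1%).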

How the data were processed

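N2A chromatin was pulled down with 4 *Paupar* oligonucleotides (2 libraries) or a *LacZ* oligonucleotide (2 libraries), beside 1 library of input DNA. The authors aligned read pairs to mm9 using Bowtie, kept single best positions, ran MACS2 on each *Paupar* library against *LacZ* and against input, and retained peaks present in both comparisons. How the calls of both pull-downs were joined was not given in the sources used here. The authors deposited 1 list of 2849 peaks with a score each, whose quantity is not stated, so it served only to rank and filter. Reads limited to a single best position can leave repeated sequence under-covered.

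Midpoints were measured to the starts of 22380 protein-coding genes (GENCODE vM1 on NCBIM37). Sequence came from that genome, and capture oligonucleotides from the study's supplementary tables. Shares were compared with Fisher's exact test and the upstream share with an exact binomial test, two-sided, with Benjamini-Hochberg adjustment over each family of 4 (threshold 0.05) and 95% intervals (Wilson for shares, exact Poisson for densities). Neighbouring regions had the width of the peak and lay directly on either side. The members and lists were chosen with earlier results of these data known. Named genes were the 10 highest scores, the 3 widest, the 5 nearest to a start, the 10 longest oligonucleotide matches, list genes with a member, genes with 3 or more members, *E2f2*, which the paper links to a peak, and the peaks at the distance limit, with exceptions stated. Some members are counted but not reported here by name. Functions were tested on simulated data. The genome was read with samtools 1.23.1 and pysam 0.24.0, and the rest was run in Python 3.11.15 (pandas 2.3.3, numpy 2.4.6), with tests from scipy 1.17.1 and figures from matplotlib 3.10.9. Alternatives to each choice are given in the closing section.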

Additional observations from a re-analysis of the deposited data

How the results depend on the processing

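Over the 10 tested results, 74 of 85 alternatives kept direction and side of the threshold. The upstream share turned to 51.06% with the starts of all protein-coding transcripts, 50.15% with a limit of 2500 bp and 52.6% with scores of at least 10 only, never past the test. The odds ratio for a score of at least 10 against other peaks lost its call at 1.305 (2500 bp), 1.299 (peaks within 10 kb merged) and 1.231 (score limit 20). That for width turned to 1.324 with a limit of 500 bp and, between members within 1 kb and at 1 to 5 kb, to 1.063 with merging. That for capture matches against other peaks turned to 0.9474 at 2500 bp, and between inner and outer members it lost its call at 0.2307 (at least 12 nt) and 0.4935 (central 200 bp). The number of genes with a member moved to 856 with a limit of 10000 bp. The causes were not tested. Capture matches against neighbouring regions passed the test in all 13 alternatives run (odds ratios 2.573 to 6.66), and both CpG island-like comparisons kept their calls in every alternative run. No paired analysis was possible because the list pools the libraries, and for the same reason no replicate could be left out. No library's depth is known, so how far depth shaped the calls, scores and widths could not be measured.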

Other observations

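Over the nuclear chromosomes, the share of peaks that lay near a start varied from 8.53% on chromosome 12 (11 of 129) to 29.4% on chromosome 7 (42 of 143). Chromosome 8, with 291 peaks the fullest, had 37 members (12.7%). Counted by genes, 4.59% of the 1045 genes on chromosome 10 had a member within 5 kb, 3.88% of the 1082 on chromosome 8 and 0.858% of the 932 on the X chromosome.

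One member was mitochondrial. It lay 465 bp downstream of the start of *mt-Nd2*, a subunit of respiratory complex I, with a score of 32.3 and a width of 1174 bp. Because mitochondrial genes are packed closely, 7 of the 13 mitochondrial protein-coding genes had this peak within 5 kb of their start, and they are among the 529 genes counted above.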
